A study of Homo sapiens with 4 samples.

Results

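The enzymes that break down amino acids, together with those of the urea cycle, were examined in Huh7, a hepatocellular carcinoma cell line, after targeting of METTL16, an RNA methyltransferase gene. The set was a written list of gene symbols, sorted by amino acid, and all 53 symbols were found among the 18806 genes of the expression table. Control cells (sgNS) carried a non-targeting guide and the other cells (METTL16 KO) a guide against METTL16, and both groups came from a single Cas9-expressing clone that was transduced with the guide by lentivirus and selected with hygromycin B. RNA was sequenced in 2 libraries per group, and the labels call the second group a knockdown although the study speaks of KO. Each value therefore describes the RNA of 1 clone of a tumor line and not of liver tissue.

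Each value is a TPM, that is, transcripts after division by gene length, as parts of a fixed total per library, so levels of different genes can be set side by side. TPM keeps no read counts, the depth of the libraries is therefore unknown, and no counting interval is given. Differences are given on the log2(TPM + 0.1) scale, on which low genes appear to change less than they do. Genes were called at a Benjamini-Hochberg adjusted p under 0.05 from limma over the 11971 genes whose mean of the 4 libraries reached 1 TPM. The smallest two-sided p of an exact permutation test between 2 and 2 libraries is 0.33, so the calls rest on the spread that limma estimates across genes. The study names 2 biological replicates per group but not whether the transductions were separate, so the p-values measure only the spread between these libraries.

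Hepatocytes are the main site of amino acid breakdown in the body. The amino group is usually removed first, by transaminases, dehydratases or deaminases, and the carbon skeleton then enters central metabolism as pyruvate, an intermediate of the citric acid cycle or acetyl-CoA. Ammonia released on the way is fixed by carbamoyl phosphate synthetase in mitochondria and leaves the cell as urea, through a cycle that passes from ornithine to citrulline, argininosuccinate and arginine. Many of these enzymes are characteristic of the differentiated liver, and their transcripts are commonly reduced in liver tumor lines.

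The targeted gene, METTL16, had 26.3 and 25.1 TPM in the control libraries and 17.6 and 18.8 TPM in the libraries with its guide, which gave a log2 fold change of -0.50 (standard error 0.062, limma, adjusted p 2.43e-05). Edits by Cas9 need not remove a transcript. Across libraries, 11723 to 12074 genes reached 1 TPM, and the top 100 genes held 32.6% and 32.8% of the total in sgNS but 28.6% and 28.7% in METTL16 KO. TPM is a share of a fixed total. The log2 fold changes of all tested genes had a median of 0.16 rather than 0, and a scaling of the libraries by their median ratio brought it to -0.0016. How far the change in the top 100 genes accounts for this median was not tested. All 12 hepatocyte markers were present, and their summed level was 30587 and 30606 TPM in sgNS and 34772 and 34404 TPM in METTL16 KO. This gave a log2 ratio of 0.18, close to the median of all genes. The sum holds large and opposite shifts of AFP and APOA2, given below, so it does not describe the single markers. Of the 12, 8 were called higher and 3 lower, where 50.1% and 25.6% of all genes tested were, and 7 were higher and 4 lower under median-ratio scaling. One of the markers called higher, TAT, is also on the list of enzymes. AFP, the fetal serum protein, was listed at 1737 and 1793 TPM in the control libraries and 10387 and 10197 TPM in METTL16 KO, and APOA2, an apolipoprotein and the most abundant marker in sgNS, at 12410 and 12347 TPM against 3277 and 3375 TPM. Of the defining markers of other cell types, PTPRC, CD3E, VWF, CDH5, KDR, COL1A1, DCN, LUM, KRT7 and KRT19 lay under 1 TPM in every library, and COL1A2 was at 0.61 and 0.68 TPM in sgNS and 1.01 and 1.18 TPM in METTL16 KO. The summed level of all 6 stromal markers went from 55.0 and 55.3 TPM to 75.8 and 73.1 TPM, carried by VIM, while PDGFRB was called lower, at 1.65 and 1.34 TPM against 1.05 and 0.76 TPM, and that of all 5 immune markers from 1514 and 1557 TPM to 919 and 933 TPM, carried by LYZ, while CD68 was called higher, at 3.40 and 2.72 TPM against 8.86 and 8.57 TPM. The 4 endothelial markers summed to 5.15 and 4.76 TPM in sgNS and 3.13 and 2.73 TPM in METTL16 KO, with PECAM1 called lower, and the 4 cholangiocyte markers to 241 to 252 TPM, with SOX9 called lower and EPCAM called higher. Whether the changes of these markers take part in the differences below was not tested, and in bulk RNA fewer cells of a type and less RNA per cell cannot be told apart.

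In METTL16 KO the pathways did not move as a block. Histidine ammonia-lyase, cystathionine gamma-lyase, argininosuccinate lyase, the proline pathway dehydrogenase ALDH4A1 and both branched-chain transaminases fell at least 2-fold, whereas carbamoyl phosphate synthetase and tryptophan 2,3-dioxygenase rose at least 2-fold. Of the 53 enzymes, 44 passed the minimum of 1 TPM, and of these 15 were lower, 14 were higher and 15 were not called. The lower calls made up 34.1% of the enzymes tested, beside 25.6% of all genes tested, and the higher calls 31.8% beside 50.1% of all genes. With the libraries scaled by their median ratio, 23 enzymes were lower and 8 were higher, beside 36.5% lower and 36.4% higher among all genes. All 15 lower calls were kept under that scaling, and the calls of AFMID, ARG1, OAT, GOT1, MCCC1 and GLUD1 as higher were lost. The share of called enzymes that were higher went from 48.3% to 25.8%. Among all genes tested, 5999 were called higher and 3065 lower, against 4359 higher and 4375 lower under median-ratio scaling. The share of higher calls thus fell among all genes too. With quantile normalization the share of called enzymes that were higher was 26.7%, and no count over all genes is given here for that setting. At 2-fold or more, 6 enzymes were lower, where 3.77% of all genes tested were, and 2 were higher, where 7.7% of all genes were. Of these 2, carbamoyl phosphate synthetase (CPS1) passed the minimum of 1 TPM only through the METTL16 KO libraries. It was thus tested only because it was high there, and its place in this count follows in part from the minimum.

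In an unmoderated linear model, which takes the spread of each gene from its own libraries alone, DMGDH, SARDH, OTC, ARG2, GPT2, BCAT2 and CBS lost their calls there only. The median log2 fold change of the 44 enzymes was 0.0029, and it was -0.16 after median-ratio scaling. The 21 calls under 2-fold, 9 lower and 12 higher, had log2 fold changes of 0.16 to 0.84 in size. The 15 enzymes that were not called had values from -0.10 to 0.18, and their 95% intervals reached from -0.23 to 0.36. Libraries of the 2 groups did not overlap for 18 enzymes that lay lower and 17 that lay higher, beside 30.7% and 56.8% of all genes tested, and they overlapped for 9. Replicates lay close together, with a median coefficient of variation of 4.49% in sgNS and 2.21% in METTL16 KO, and the widest spread was that of BCAT2 in METTL16 KO, at 28.5%. The summed level of the 53 enzymes was 2340 and 2331 TPM in sgNS and 2183 and 2152 TPM in METTL16 KO. Named pseudogenes, which could share reads, exist for KYNU, GCAT, GLDC, ASL and DBT and for the enzymes where they are mentioned below, and exons of DMGDH and PIPOX overlap those of BHMT and PHF12.

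**Figure D1:**
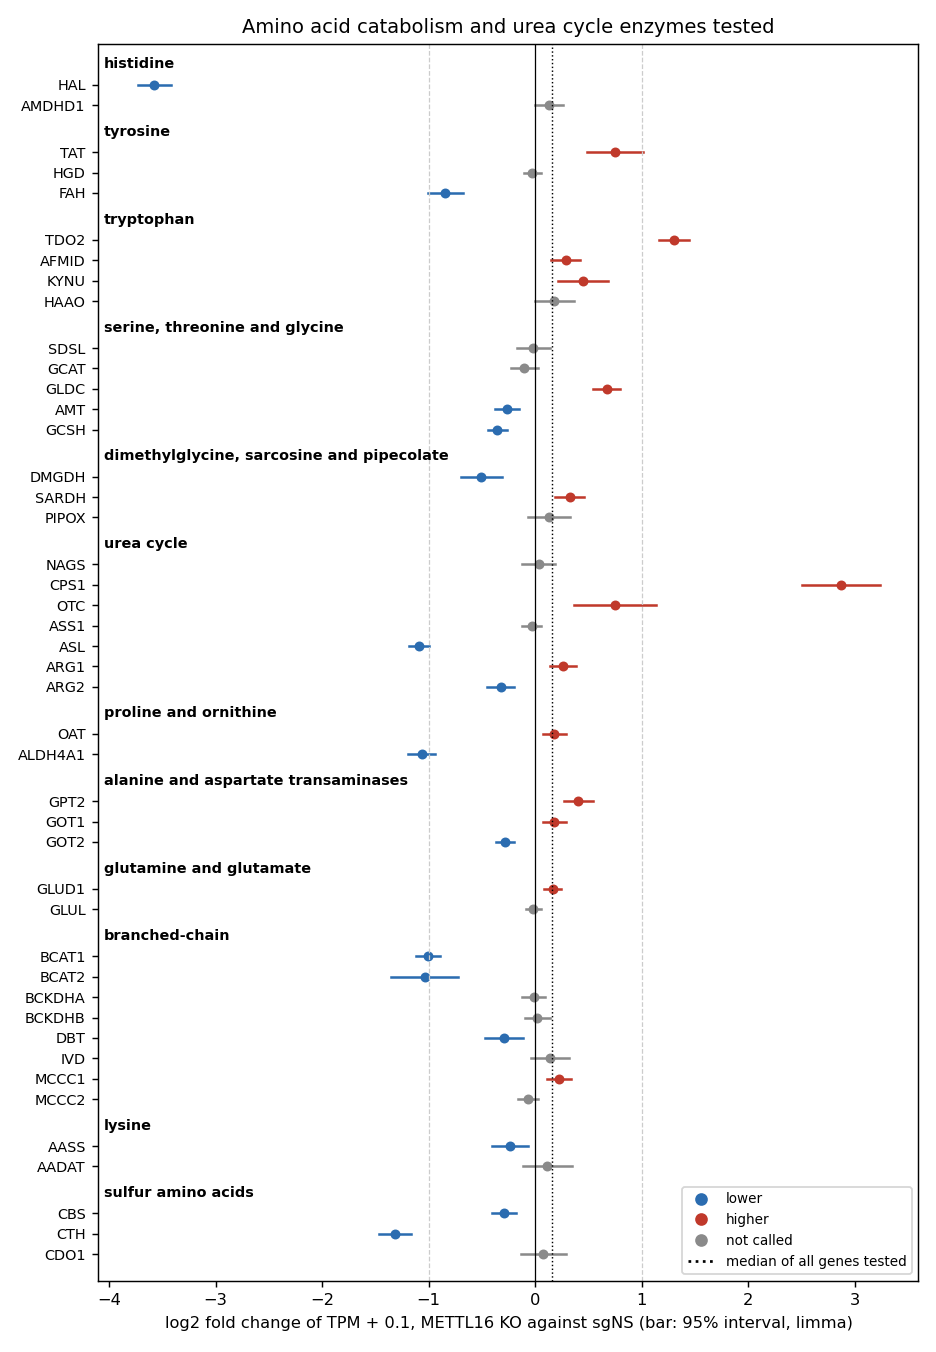
Log2 fold change of TPM + 0.1 between METTL16 KO and sgNS for the 44 enzymes tested, in the order of the pathways, with points as limma estimates, bars as 95% intervals and a dotted line at the median of all genes tested (0.16). HAL lies far to the left at -3.58 and CPS1 far to the right at 2.87, and most pathways hold both blue (lower) and red (higher) points.

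Histidine breakdown held the largest fall among the 44 enzymes above the minimum. HAL, histidine ammonia-lyase, takes the amino group from histidine in the opening step of the pathway (ENSG00000084110, minus strand of GRCh38, chr12:95972662-95996365). Its level was 45.1 and 43.2 TPM in the sgNS libraries and 3.54 and 3.69 TPM in the METTL16 KO libraries, a 12.2-fold lower mean. The log2 fold change was -3.58 (standard error 0.071, limma, adjusted p 2.46e-11), which was the fall ranked 5 among all genes tested. AMDHD1, imidazolonepropionase, acts later in the same pathway and lies on the plus strand only 3.9 kb from HAL (ENSG00000139344, chr12:95943331-95968720). Its level was 24.1 and 25.7 TPM in the control libraries and 26.6 and 28.1 TPM in METTL16 KO. Both METTL16 KO libraries of AMDHD1 lay above both sgNS libraries, but its log2 fold change of 0.13 had a limma adjusted p of 0.064, was called with an adjusted p of 0.029 without sgNS replicate 2, and turned to -0.03 under median-ratio scaling. The 7 tested neighbors of HAL within 500 kb, AMDHD1 included, had a median log2 fold change of -0.10, from -0.65 for NTN4 to 0.45 for METAP2. The remaining enzymes of the pathway were close to absent in both groups, UROC1 (urocanate hydratase) at 0 to 0.14 TPM and FTCD (formimidoyltransferase cyclodeaminase) at 0 to 0.39 TPM.

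Promoter sequence is shown for HAL and its neighbor AMDHD1, which lie side by side and act in the same pathway, for CTH, the next largest fall among the 44 enzymes above the minimum, and for TDO2, the rise among these that came after CPS1, for which 3 promoters were listed. The sequences are the 250 bases before the start of each gene in RefSeq on GRCh38.p14, read in the direction of the gene, with matches to the searched motifs in capitals. They lie at chr12:95996345-95996594 on the minus strand for HAL, chr12:95943081-95943330 on the plus strand for AMDHD1, chr1:70411018-70411267 on the plus strand for CTH and chr4:155903446-155903695 on the plus strand for TDO2.
HAL: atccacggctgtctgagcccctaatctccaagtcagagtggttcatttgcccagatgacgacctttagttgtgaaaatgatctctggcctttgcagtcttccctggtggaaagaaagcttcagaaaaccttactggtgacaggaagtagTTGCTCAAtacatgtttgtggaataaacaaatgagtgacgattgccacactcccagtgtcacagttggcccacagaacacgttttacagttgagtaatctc
AMDHD1: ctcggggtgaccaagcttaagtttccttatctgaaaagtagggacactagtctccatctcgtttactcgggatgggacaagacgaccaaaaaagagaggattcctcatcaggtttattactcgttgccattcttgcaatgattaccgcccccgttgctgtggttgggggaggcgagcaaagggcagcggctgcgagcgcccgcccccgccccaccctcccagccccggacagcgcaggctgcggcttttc
CTH: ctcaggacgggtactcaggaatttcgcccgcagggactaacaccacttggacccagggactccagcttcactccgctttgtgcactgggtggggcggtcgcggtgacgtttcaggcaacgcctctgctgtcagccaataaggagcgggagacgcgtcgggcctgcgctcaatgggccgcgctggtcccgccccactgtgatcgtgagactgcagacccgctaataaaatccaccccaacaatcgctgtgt
TDO2: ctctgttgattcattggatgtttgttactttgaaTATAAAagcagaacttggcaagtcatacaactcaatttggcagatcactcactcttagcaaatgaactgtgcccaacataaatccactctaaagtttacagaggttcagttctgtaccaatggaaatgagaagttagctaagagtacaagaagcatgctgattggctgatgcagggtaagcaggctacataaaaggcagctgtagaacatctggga
The GC content was 45.6% with 4 CpG for HAL and 40% with 0 CpG for TDO2, and it was 57.6% with 16 CpG for AMDHD1 and 61.6% with 20 CpG for CTH, where the median of all 35116 promoters was 58% with 11 CpG. The capitals in HAL mark a match to TTGCNNAA, the letters of a C/EBP site, from 101 to 94 bases before the start, and those in TDO2 a match to TATAAA, the letters of a TATA box, from 216 to 211 bases before it. AMDHD1 and CTH held none of the letters searched in this window.

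Promoters were listed for 46 of the 53 enzymes, 64 in all, and 6 motifs were searched on both strands. TTGCNNAA was found in 10.9% of the promoters of these enzymes and in 9.05% of all promoters. Among enzymes with a listed promoter it was present for 5 of 14 lower ones (HAL, ALDH4A1, BCAT1, AASS and CBS) and for 2 of 12 higher ones (KYNU and SARDH). Counted by gene, with a match in any listed promoter, it was present for 15.2% of the enzymes and 11% of all 27305 genes, and BCAT1 has 5 listed promoters and CBS 3. ALDH4A1 and SARDH also have another listed promoter each, without this match. TATAAA was found in 14.1% of the promoters of these enzymes and in 10.7% of all, for 1 of 14 lower ones and 5 of 12 higher ones, and by gene for 17.4% of the enzymes and 13% of all genes. CACGTG, an E-box, was found in 9.38% against 6.34%, TGATGNAA, the letters of a C/EBP-ATF response element, in 3.12% against 3.14%, GTTAATNA, the letters of an HNF1 site, in 3.12% against 2.19%, and CAAAGTCCA, the letters of an HNF4 site, in 1.56% against 0.325%. The motifs may overlap one another, and these matches are descriptions of letters and not of bound sites.

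**Figure D2:**
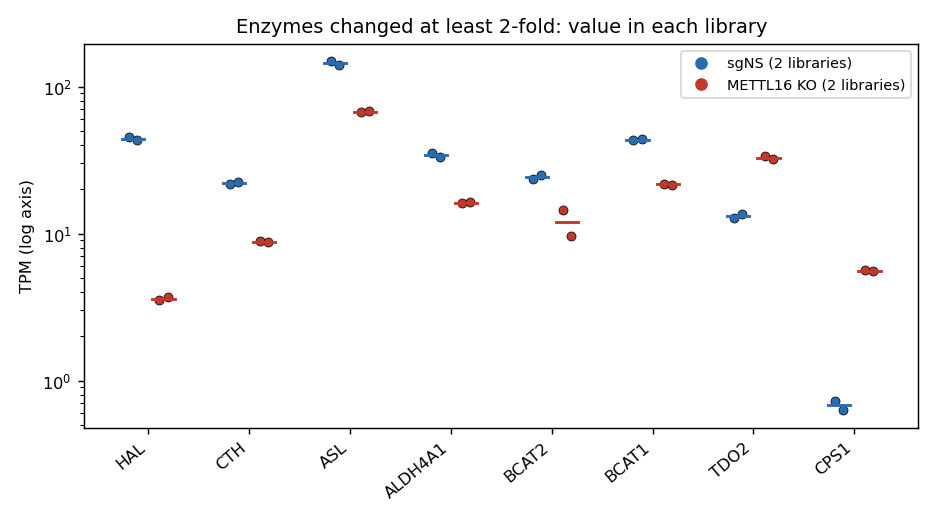
TPM on a log axis in each library for the 8 enzymes that changed at least 2-fold, with points for libraries and bars for group means of sgNS (blue, 2 libraries) and METTL16 KO (red, 2 libraries). The groups are apart for every enzyme shown, most for HAL (12.2-fold lower), and only BCAT2 in METTL16 KO shows its 2 libraries clearly apart from each other (14.4 and 9.59 TPM).

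In tyrosine breakdown, the opening step rose, the last step fell, and the most abundant enzyme between them was not called. TAT, tyrosine aminotransferase, was listed at 3.22 and 3.55 TPM in the control libraries and 6.15 and 5.41 TPM in METTL16 KO. TAT thus had a log2 fold change of 0.75 (standard error 0.12, limma, adjusted p 1.59e-04). HGD, homogentisate 1,2-dioxygenase, was by far the most abundant of the pathway, at 199 and 206 TPM in sgNS against 201 and 197 TPM in METTL16 KO, with overlapping groups, a log2 fold change of -0.03 and a limma adjusted p of 0.51. Under median-ratio scaling, HGD was called lower at -0.19. FAH, fumarylacetoacetase, which splits the last intermediate into fumarate and acetoacetate, fell from 15.4 and 14.9 TPM to 8.27 and 8.53 TPM. This was a log2 fold change of -0.84 (standard error 0.073, limma, adjusted p 1.49e-06).

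HPD, 4-hydroxyphenylpyruvate dioxygenase, which acts between TAT and HGD, did not pass the minimum, with 0.23 and 0 TPM in sgNS and 0.98 and 0.99 TPM in METTL16 KO. It is one of 9 enzymes under the minimum, which were tested only in a fit without a filter, where 18.2% of 16350 genes were called lower and 39.8% higher. In that fit HPD was called higher with a limma adjusted p of 0.019, as the only one of the 9, while 3 were called lower and 5 were not called.

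In tryptophan breakdown through kynurenine, 3 of the 4 enzymes tested on the list were called higher, where 50.1% of all genes were. TDO2, tryptophan 2,3-dioxygenase, catalyzes the opening and rate-limiting step in liver (ENSG00000151790). It rose from 12.8 and 13.6 TPM to 33.6 and 32.0 TPM, 2.48-fold. The log2 fold change of TDO2 was 1.30 (standard error 0.063, limma, adjusted p 1.61e-08), and its tested neighbor within 500 kb, CTSO, had a log2 fold change of 0.89. AFMID, kynurenine formamidase, rose from 42.3 and 38.3 TPM to 47.3 and 51.0 TPM, a log2 fold change of 0.29 with a limma adjusted p of 0.0012 that became 0.090 under median-ratio scaling.

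KYNU, kynureninase, was listed at 4.08 and 3.94 TPM in the control libraries and 5.64 and 5.40 TPM in METTL16 KO. This was a log2 fold change of 0.45 (standard error 0.11, limma, adjusted p 0.0026), and it was not called under quantile normalization (adjusted p 0.053). For HAAO, 3-hydroxyanthranilate 3,4-dioxygenase, the groups overlapped at 18.4 and 16.05 TPM against 20.8 and 18.3 TPM, with a log2 fold change of 0.18 and a limma adjusted p of 0.071. With a replicate block it was called higher (limma adjusted p 0.022). Without sgNS replicate 1, HAAO was called higher at 0.28 (limma adjusted p 0.019). KMO, kynurenine 3-monooxygenase, which joins these steps, lay between 0.15 and 0.41 TPM in all libraries, and 28.4% of its exon bases overlap OPN3 on the other strand.

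The glycine cleavage system, a mitochondrial complex that splits glycine into carbon dioxide, ammonia and a one-carbon unit, had its subunits on both sides. GLDC, the decarboxylase subunit (P protein), rose from 26.3 and 24.7 TPM to 39.7 and 41.7 TPM, a log2 fold change of 0.67 (standard error 0.056, limma, adjusted p 1.12e-06). AMT, the aminomethyltransferase subunit (T protein), fell from 40.1 and 38.3 TPM to 32.2 and 33.1 TPM, a log2 fold change of -0.26 (standard error 0.052, limma, adjusted p 7.42e-04). GCSH, the lipoyl carrier subunit (H protein), was the most abundant of these and fell from 137 and 142 TPM to 107 and 111 TPM, a log2 fold change of -0.36 (standard error 0.040, limma, adjusted p 1.08e-05). In each of these subunits the METTL16 KO libraries lay on the same side of both sgNS libraries. GCSH has 6 named pseudogenes, so reads may be shared. The same holds for AMT, of whose exon bases 62.6% overlap ENSG00000283189 and 6.22% NICN1, both on the same strand. A further subunit, DLD, is not on the list and is counted below with the other pathway genes. It rose from 72.3 and 77.1 TPM to 87.5 and 85.4 TPM. Its log2 fold change of 0.21 (limma adjusted p 0.0014) was not called under median-ratio scaling (0.05).

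The serine and threonine enzymes on the list showed no call. SDSL, a serine dehydratase-like enzyme, stood at 26.1 and 24.4 TPM in the control libraries and 26.5 and 23.5 TPM in METTL16 KO, with a log2 fold change of -0.01 and a 95% interval from -0.17 to 0.14. GCAT, which cleaves 2-amino-3-ketobutyrate to glycine, stood at 31.7 and 29.5 TPM against 28.2 and 28.9 TPM, with a log2 fold change of -0.10 and a limma adjusted p of 0.13. GCAT was called lower without sgNS replicate 2 (-0.15, limma adjusted p 0.038), and SDSL and GCAT were both called lower under median-ratio scaling, at -0.18 and -0.27. SDS, the liver serine dehydratase, lay between 0 and 0.24 TPM.

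The choline side path from dimethylglycine to glycine also held both directions. DMGDH, dimethylglycine dehydrogenase, fell from 14.96 and 14.34 TPM to 11.2 and 9.45 TPM, a log2 fold change of -0.50 (standard error 0.089, limma, adjusted p 3.51e-04). SARDH, sarcosine dehydrogenase, which takes the next step, rose from 38.1 and 33.6 TPM to 45.4 and 44.3 TPM, a log2 fold change of 0.32 (standard error 0.062, limma, adjusted p 6.51e-04). PIPOX, the peroxisomal oxidase of pipecolate and sarcosine, was listed at 8.52 and 7.56 TPM and at 8.65 and 8.90 TPM, and its log2 fold change of 0.13 was not called. PIPOX turned to -0.04 under median-ratio scaling.

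Within the urea cycle, CPS1 and OTC, its mitochondrial steps, were higher and ASL, which splits argininosuccinate, was lower. CPS1, carbamoyl phosphate synthetase 1, is rate-limiting and is among the most abundant mitochondrial proteins of normal liver (ENSG00000021826, plus strand, chr2:210477682-210679107). In sgNS it was listed at only 0.73 and 0.63 TPM, and in METTL16 KO at 5.65 and 5.55 TPM, 8.24-fold higher. Its log2 fold change was 2.87 (standard error 0.17, limma, adjusted p 6.56e-08). CPS1 passed the minimum of 1 TPM only through the METTL16 KO libraries. OTC, ornithine transcarbamylase, which joins carbamoyl phosphate to ornithine, was also low, at 1.56 and 1.74 TPM in sgNS and 2.51 and 3.21 TPM in METTL16 KO. The log2 fold change of OTC was 0.75 (standard error 0.18, limma, adjusted p 0.0024). NAGS, which makes the activator of CPS1, was listed at 13.5 and 14.5 TPM against 14.3 and 14.4 TPM, with overlapping groups and a log2 fold change of 0.04 that was -0.13 under median-ratio scaling and -0.02 without sgNS replicate 1.

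The cytosolic enzymes stood far above CPS1 and OTC in both groups. ASS1, argininosuccinate synthase, had 116 and 122 TPM in sgNS and 117 and 116 TPM in METTL16 KO. Its groups overlapped, its log2 fold change was -0.03 (limma adjusted p 0.49, and called lower at -0.20 under median-ratio scaling), and 14 named pseudogenes could share its reads. ASL, argininosuccinate lyase (ENSG00000126522, chr7:66075800-66094697), fell from 148 and 140 TPM to 67.1 and 67.8 TPM, 2.13-fold. For ASL the log2 fold change was -1.09 (standard error 0.043, limma, adjusted p 3.17e-09), while its 4 tested neighbors within 500 kb ranged from -1.58 for GUSB to 0.84 for CRCP. ARG1, the liver arginase that releases urea, rose from 51.0 and 56.8 TPM to 64.9 and 64.1 TPM, a log2 fold change of 0.26 (standard error 0.055, limma, adjusted p 0.0012), and its adjusted p was 0.15 under median-ratio scaling. ARG2, the mitochondrial arginase, fell from 42.3 and 46.3 TPM to 34.9 and 35.8 TPM, a log2 fold change of -0.32 (standard error 0.056, limma, adjusted p 2.98e-04). ARG2 shares 39.6% of its exon bases with VTI1B on the other strand, and whether counting used strand is not given in the sources used here.

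**Figure D3:**
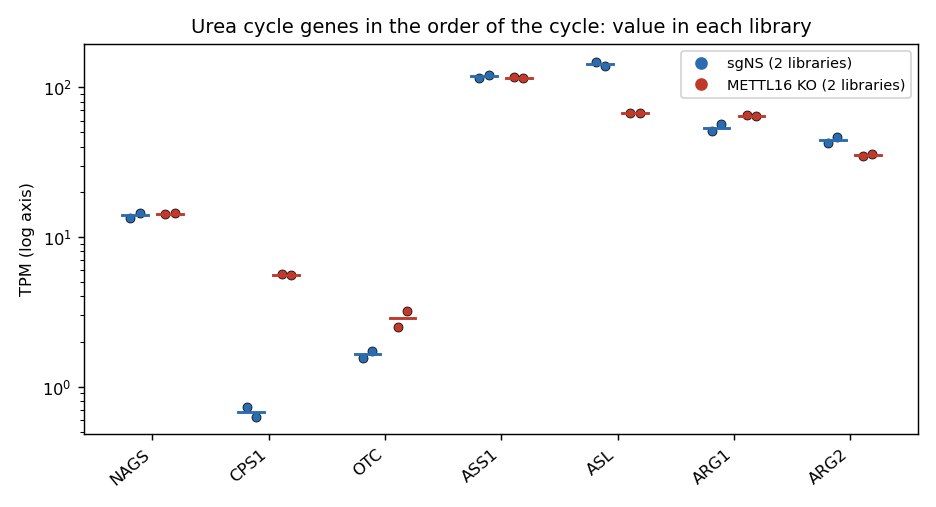
TPM on a log axis in each library for the 7 urea cycle genes in the order of the cycle, with points for libraries and bars for group means of sgNS (blue, 2 libraries) and METTL16 KO (red, 2 libraries). CPS1 climbs from 0.73 and 0.63 TPM to 5.65 and 5.55 TPM yet stays far below ASS1, whose groups overlap between 116 and 122 TPM, and ASL drops to 67.1 and 67.8 TPM.

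Proline breakdown fell at the enzyme shared with ornithine. ALDH4A1, the dehydrogenase that turns pyrroline-5-carboxylate into glutamate (ENSG00000159423, minus strand, chr1:18871430-18902724), had 35.2 and 33.0 TPM in sgNS, where the mean was 34.1 ± 1.54 TPM (SD, n = 2), and a mean of 16.235 ± 0.19 TPM (SD, n = 2) in METTL16 KO, so that the groups lay apart. Its mean was 2.10-fold lower, with a log2 fold change of -1.07 (standard error 0.059, limma, adjusted p 4.64e-08). The 6 tested neighbors of ALDH4A1 had a median log2 fold change of 0.32, from -0.12 to 0.61. OAT, ornithine aminotransferase, which feeds the same intermediate from ornithine, rose from 75.5 and 82.8 TPM to 91.0 and 88.2 TPM, a log2 fold change of 0.18 (limma adjusted p 0.0066). The call of OAT was lost without METTL16 KO replicate 1 (adjusted p 0.095) and under median-ratio scaling (0.02, adjusted p 0.80). The proline and hydroxyproline dehydrogenases lay under the minimum, PRODH at 1.56 and 0.99 TPM in sgNS and 0.53 and 0.33 TPM in METTL16 KO, and PRODH2 at 1.33 and 1.89 TPM against 0.25 and 0.27 TPM. In the fit without a filter both were called lower, with limma adjusted p of 0.018 for PRODH and 0.0014 for PRODH2.

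Among alanine and aspartate transaminases, which exchange amino groups with glutamate, GPT2 and GOT1 rose and GOT2 fell. GPT2, the mitochondrial alanine transaminase, went from 26.6 and 24.1 TPM to 34.2 and 33.0 TPM, a log2 fold change of 0.41 (standard error 0.061, limma, adjusted p 1.06e-04). GPT, the cytosolic form measured in serum as a liver test, lay under the minimum at 1.14 and 1.13 TPM in sgNS and 0.26 and 0.29 TPM in METTL16 KO, and was called lower without a filter (limma adjusted p 0.0013). GOT1, the cytosolic aspartate transaminase, stood at 77.9 and 74.7 TPM in sgNS and 89.7 and 83.5 TPM in METTL16 KO. The log2 fold change of GOT1 was 0.18 (limma adjusted p 0.0047), and the call was lost without METTL16 KO replicate 1 (adjusted p 0.097) and under median-ratio scaling (0.02, adjusted p 0.76). GOT2, the mitochondrial form, fell from 122 and 123 TPM to 103 and 99.2 TPM, a log2 fold change of -0.28 (standard error 0.039, limma, adjusted p 5.72e-05), and has 6 named pseudogenes.

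GLUL was the most abundant enzyme of the set, and of the glutamine and glutamate enzymes only GLUD1 was called. GLUD1, mitochondrial glutamate dehydrogenase, had 186 and 190 TPM in sgNS and 214 and 207 TPM in METTL16 KO, and its log2 fold change of 0.16 (limma adjusted p 0.0013) turned to -0.0008 under median-ratio scaling. GLUL, glutamine synthetase, which fixes ammonia that escapes the urea cycle, stood at 283 and 282 TPM against 280 and 279 TPM. Its log2 fold change of -0.02 had a 95% interval from -0.08 to 0.05, and under median-ratio scaling it was called lower at -0.18. Both genes have 4 named pseudogenes. GLS2, the liver glutaminase, lay between 0.25 and 0.84 TPM, and SPRYD4 on the other strand covers 77.1% of its exon bases.

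Branched-chain amino acids are transaminated by BCAT1 or BCAT2, and both enzymes fell, whereas 4 of the 6 later enzymes on the list were not called. BCAT1, the cytosolic form (ENSG00000060982, minus strand, chr12:24810024-24949101), had 43.21 and 43.96 TPM in sgNS and 21.8 and 21.5 TPM in METTL16 KO, 2.02-fold lower. Its log2 fold change was -1.01 (standard error 0.052, limma, adjusted p 2.50e-08). BCAT2, the mitochondrial form (ENSG00000105552, minus strand, chr19:48795062-48811029), was listed at 23.5 and 25.0 TPM in the control libraries and 14.4 and 9.59 TPM in METTL16 KO. The log2 fold change was -1.04 (standard error 0.14, limma, adjusted p 5.54e-05), and the METTL16 KO libraries differed from each other more than for any other enzyme tested. Both sit at the edge of the 2-fold threshold: without METTL16 KO replicate 2 the log2 fold change was -0.74 for BCAT2 and -0.998 for BCAT1, and without sgNS replicate 2 it was -0.99 for BCAT2 and -0.996 for BCAT1, so that 4 rather than 6 enzymes were lower by 2-fold.

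The branched-chain ketoacid dehydrogenase, the committed and irreversible step, is built from BCKDHA, BCKDHB, DBT and a dehydrogenase shared with other complexes. BCKDHA was listed at 46.21 and 44.03 TPM against 44.7 and 44.6 TPM and BCKDHB at 34.8 and 36.9 TPM against 35.8 and 36.9 TPM, with overlapping groups and log2 fold changes of -0.01 and 0.02. Under median-ratio scaling these subunits were called lower, BCKDHA at -0.18 and BCKDHB at -0.14. On the same strand, ENSG00000255730 covers 73.7% of the exon bases of BCKDHA, so reads may be shared. DBT, the transacylase core, fell from 9.66 and 10.1 TPM to 8.21 and 7.90 TPM, a log2 fold change of -0.29 (limma adjusted p 0.0073) that was no longer called without METTL16 KO replicate 2 (adjusted p 0.060). In the leucine branch, IVD, isovaleryl-CoA dehydrogenase, was listed at 12.8 and 11.7 TPM against 12.8 and 14.3 TPM and was not called. The carboxylase subunit MCCC1 rose from 32.4 and 32.5 TPM to 37.0 and 38.9 TPM, a log2 fold change of 0.23 (limma adjusted p 0.0021, and 0.30 under median-ratio scaling). Its partner MCCC2 stood at 68.1 and 68.8 TPM against 66.5 and 64.6 TPM, a log2 fold change of -0.06 that was not called and was -0.23, called lower, under median-ratio scaling.

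Lysine breakdown opened with a small fall. AASS, the bifunctional enzyme of the saccharopine pathway, had 10.8 and 10.6 TPM in sgNS and 9.10 and 8.94 TPM in METTL16 KO, which is a log2 fold change of -0.24 (standard error 0.076, limma, adjusted p 0.014). That call was lost without sgNS replicate 1 (adjusted p 0.0502), METTL16 KO replicate 1 (0.058) or METTL16 KO replicate 2 (0.080). AADAT, the aminoadipate aminotransferase, was listed at 8.83 and 10.51 TPM against 11.2 and 9.75 TPM, with overlapping groups and a log2 fold change of 0.12.

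In the transsulfuration pathway, which carries sulfur from homocysteine to cysteine, both steps fell. CBS, cystathionine beta-synthase, went from 149 and 133 TPM to 117 and 114 TPM, a log2 fold change of -0.29 (standard error 0.052, limma, adjusted p 3.87e-04, and 0.11 in the unmoderated linear model). CTH, cystathionine gamma-lyase, which releases cysteine (ENSG00000116761, plus strand, chr1:70411218-70439851), fell from 21.9 and 22.3 TPM to 8.95 and 8.70 TPM. Its mean was 2.50-fold lower, with a log2 fold change of -1.31 (standard error 0.067, limma, adjusted p 2.43e-08), while its 4 tested neighbors ranged from -0.88 for LRRC40 to 0.70 for ANKRD13C. CDO1, cysteine dioxygenase, which oxidizes cysteine toward taurine and sulfate, was listed at 6.39 and 5.88 TPM against 6.51 and 6.42 TPM. Its log2 fold change of 0.08 was not called and was -0.09 under median-ratio scaling.

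Isoenzymes of the same reaction, and the related dehydrogenases of proline and hydroxyproline, were compared as the log2 ratio of their levels within each library. ARG1 over ARG2 was 0.27 and 0.29 in sgNS and 0.89 and 0.84 in METTL16 KO, a difference of 0.59. GOT1 over GOT2 was -0.65 and -0.72 in sgNS and -0.19 and -0.25 in METTL16 KO, a difference of 0.46. GPT over GPT2 was -4.43 and -4.30 in sgNS and -6.57 and -6.41 in METTL16 KO, a difference of -2.13 that was -1.14 with a pseudocount of 1, with GPT near or under 1 TPM. For these 3 of the 6 pairs described here, both METTL16 KO libraries lay beyond both sgNS libraries with either other pseudocount too, and the exact two-sided permutation p was 0.33, the smallest that 2 against 2 libraries can give. In these libraries the transcript ratio of the cytosolic to the mitochondrial form was higher in METTL16 KO for arginase and aspartate transaminase and lower for alanine transaminase. Levels of ARG2 and GOT2 may hold reads of other genes, given the exon overlap and the pseudogenes named above. BCAT1 over BCAT2 was 0.88 and 0.81 in sgNS and 0.59 and 1.15 in METTL16 KO, with overlapping groups and an exact permutation p of 1. PRODH over PRODH2 differed by 0.86 (exact permutation p of 0.33), and with a pseudocount of 1 the difference was 0.38 (exact permutation p of 0.67), with both genes near or under 1 TPM. SDS over SDSL differed by 0.48 with overlapping groups, a value set by the pseudocount (0.07 with 1 and 1.72 with 0.01), since SDS is listed at 0 in an sgNS library.

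**Figure D4:**
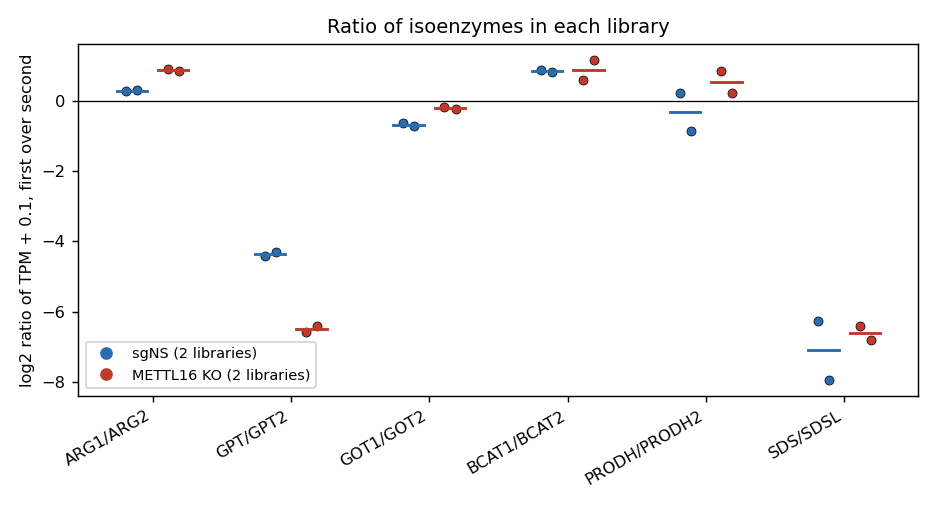
Log2 ratio of TPM + 0.1 between 2 isoenzymes or related enzymes in each library, the first named over the second, with points for libraries and bars for group means of sgNS (blue, 2 libraries) and METTL16 KO (red, 2 libraries). ARG1/ARG2 and GOT1/GOT2 move up, by 0.59 and 0.46, GPT/GPT2 moves down by 2.13, and the red points of BCAT1/BCAT2 enclose the blue ones.

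Another 58 enzymes and carriers of the same pathways were counted with the same calls. Of these, 52 passed the minimum, 26 were lower, 16 were higher and 10 were not called, and the median of their log2 fold changes was -0.09. The lower calls made up 50% and the higher ones 30.8% of those tested, beside 25.6% and 50.1% of all genes, and under median-ratio scaling 31 were lower and 8 higher, beside 36.5% and 36.4% of all genes. The counts by pathway that follow are without scaling and are read against the same shares of all genes. BCKDK, the kinase that inhibits the branched-chain ketoacid dehydrogenase, fell from 33.4 and 32.4 TPM to 11.01 and 11.40 TPM, and 5 of 14 other branched-chain genes were lower and 5 higher, or 8 lower and 2 higher under median-ratio scaling. All 3 other lysine genes were lower, led by ALDH7A1, and so were 5 of 8 other sulfur genes, led by the sulfide oxidation enzyme ETHE1 at 23.5 and 25.4 TPM against 10.6 and 11.8 TPM. MAT1A, the liver methionine adenosyltransferase, was the only gene of these 8 called higher, at 1.01 and 1.02 TPM against 4.39 and 4.90 TPM.

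The carriers of the urea cycle that were tested, 2 of 4, were both lower, with the aspartate and glutamate carrier SLC25A13 at 73.9 and 74.8 TPM against 48.4 and 49.8 TPM. BHMT, the methyltransferase whose reaction yields the dimethylglycine used by DMGDH, rose from 2.22 and 2.59 TPM to 3.46 and 3.39 TPM, a log2 fold change of 0.50 (limma adjusted p 0.0082) that was not called under median-ratio scaling (0.34). Its relative BHMT2, which also methylates homocysteine, fell from 137 and 134 TPM to 50.9 and 46.6 TPM. AGXT, which transaminates glyoxylate to glycine, fell from 25.3 and 23.2 TPM to 9.13 and 9.50 TPM, in a group of 5 tested serine and glycine genes with 3 lower and 1 higher, or 3 lower and 0 higher under median-ratio scaling. Of the 4 other tryptophan genes tested, 2 were lower and 2 higher, with the kynurenine aminotransferases KYAT1 (19.5 and 19.3 TPM against 13.4 and 13.2 TPM) and KYAT3 (19.9 and 21.5 TPM against 31.5 and 29.7 TPM) on opposite sides. Of the 5 other proline genes, 2 were lower, led by the pyrroline-5-carboxylate reductase PYCR1 at 129 and 125 TPM against 85.0 and 79.0 TPM, and 2 were higher, among them HOGA1 at 0.31 and 0.49 TPM against 2.43 and 2.55 TPM, which passed the minimum only through the METTL16 KO libraries. Glutamine and asparagine genes had 3 of 4 higher and 0 lower, or 1 higher and 1 lower under median-ratio scaling, led by the asparaginase ASRGL1, which rose from 10.5 and 11.2 TPM to 42.3 and 42.6 TPM.

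**Figure D5:**
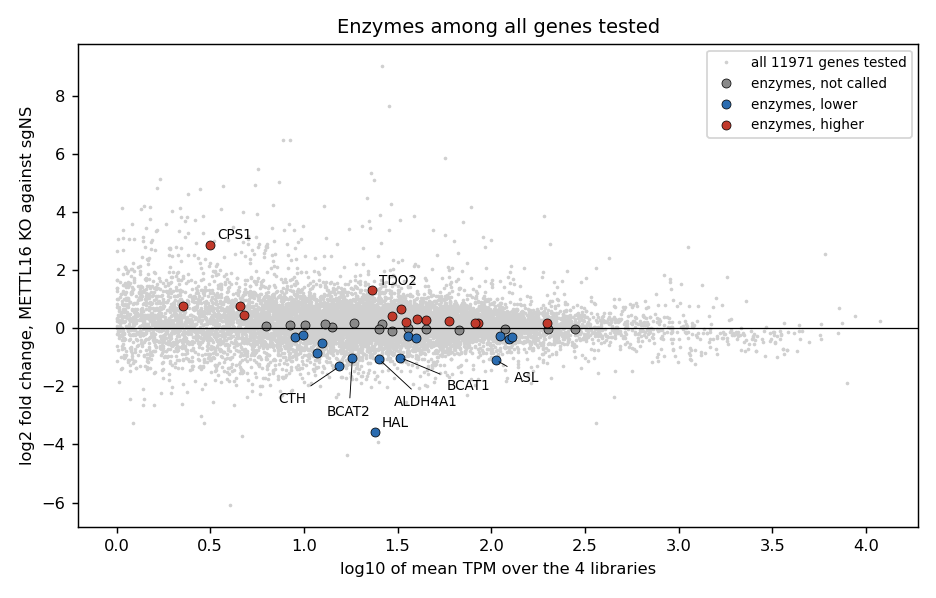
Log2 fold change between METTL16 KO and sgNS against the log10 of mean TPM over the 4 libraries, with grey dots for all 11971 genes tested and large points for the 44 enzymes (grey not called, blue lower, red higher). HAL at -3.58 lies at the lower edge of the cloud, CPS1 at 2.87 near the upper edge at low level, and most other enzymes lie within it.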

How the data were processed

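RNA was measured in 4 Huh7 libraries, 2 with a non-targeting guide and 2 with a METTL16 guide. The authors deposited TPM values per gene symbol. Per the study's methods, reads of a paired-end HiSeq run were trimmed with Cutadapt, mapped to GRCh38 with STAR and summarized per gene by RSEM. Their versions and the annotation are not given in the sources used here. The methods call the unit RPKM, but every library sums to 1000000, as TPM does. The labels name ribosomal RNA depletion and also a stranded mRNA kit. Depth is unknown, so no count test was run.

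From these values, log2(TPM + 0.1) was fitted over 11971 genes, those whose mean reached 1 TPM, by limma 3.58.1 in R 4.3.3 (lmFit, eBayes with trend, no block, two-sided, Benjamini-Hochberg adjustment over all genes), and the fit was tested on simulated data. Intervals are limma's 95% intervals. Isoenzyme ratios were compared by exact permutation tests with scipy 1.17.1 in Python 3.11.15, with numpy 2.4.6, pandas 2.3.3 and matplotlib 3.10.9. Gene positions, exon overlaps and neighbors come from GENCODE release 44 on GRCh38, and promoters from RefSeq on GRCh38.p14. The enzymes, the lists and the tests were chosen with earlier results of these data known. All enzymes are accounted for, those under the minimum by their range, and of other pathway genes only the called gene with the largest change in each direction per pathway could be named. The alternatives were pseudocounts of 1 and 0.01, no filter, a minimum mean of 5 TPM, median-ratio scaling, quantile normalization, a replicate block, limma without trend, an unmoderated linear model and each library left out in turn. No library was left out of the results. Values of a few listed genes and of 1 isoenzyme pair are not reported here.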

Additional observations from a re-analysis of the deposited data

How the results depend on the processing

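Of the 29 called enzymes, 11 kept their call and direction under all 13 alternatives, and 2, TAT and CPS1, under the 12 that could be run for them, since neither reaches a minimum mean of 5 TPM. Of the 8 that changed at least 2-fold, 7 are among these, and the minimum of 5 TPM left 1 enzyme higher by 2-fold. CPS1, 1 of the 7, had passed the minimum of 1 TPM only through the METTL16 KO libraries. In the unmoderated linear model, with 11 lower calls, 7 enzymes lost a call that they kept elsewhere, with adjusted p of 0.089 for DMGDH, 0.105 for SARDH, 0.088 for OTC, 0.068 for ARG2, 0.058 for GPT2, 0.11 for BCAT2 and 0.11 for CBS. Higher calls numbered 8 under median-ratio scaling, 8 under quantile normalization and 6 in the unmoderated linear model, against 14. Lower calls numbered 23 under median-ratio scaling and 22 under quantile normalization, against 15. Leaving out each library in turn gave 13 to 16 lower and 12 to 15 higher calls, 4 to 6 of them lower by 2-fold, a pseudocount of 1 also gave 4 lower by 2-fold, and no filter gave 18 lower and 15 higher. With a replicate block, which leaves 1 residual degree of freedom, there were 15 lower and 15 higher calls, the added one being HAAO (0.18, limma adjusted p 0.022). Same-numbered libraries did not deviate together (r = -0.04), so the numbers are not taken as pairs.

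Direction turned for 1 called enzyme, GLUD1 (-0.0008 under median-ratio scaling), and for 11 of the 15 uncalled ones. Under median-ratio scaling the log2 fold changes were AMDHD1 -0.032, PIPOX -0.0366, NAGS -0.129, BCKDHB -0.145, IVD -0.0242, AADAT -0.0478 and CDO1 -0.0875, and under quantile normalization AMDHD1 -0.0497, HAAO -0.0129, PIPOX -0.0638, NAGS -0.143, BCKDHB -0.133, IVD -0.0279, AADAT -0.0504 and CDO1 -0.119. Over the libraries left out in turn, SDSL went from -0.102 to 0.0725, NAGS from -0.0164 to 0.0872, ASS1 from -0.0654 to 0.003, BCKDHA from -0.0491 to 0.0204, BCKDHB from -0.0212 to 0.0616 and AADAT from -0.0082 to 0.24. Median-ratio scaling lowers every value by about 0.16, the median of all genes, and the cause of the other shifts was not tested. The depth of the libraries is unknown, so for the 9 enzymes with a mean under 1 TPM it cannot be told how many reads stand behind a value.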
